A study of Mus musculus with 36 samples.

Results

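The gene set described here holds 8 genes of the migrating neuroblasts of the rostral migratory stream, namely Dcx, Sox11, Cd24a, Prokr2, Tnr, Ncam1, St8sia2 and Erbb4, out of 24502 genes with values in all tissues. A gene entered by name alone: the RefSeq transcripts in the files were mapped to gene symbols and their FPKM values (fragments per kilobase of transcript, relative to the size of the library) were summed by symbol. All 8 genes were listed in every library.

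RNA-seq was run on 36 libraries from the olfactory bulb (OB), the main olfactory epithelium (MOE) and the vomeronasal organ (VNO) of C57BL/6 mice, for which the labels name no engineered allele. In each tissue, 3 libraries came from each of 4 groups: females (SF) or males (SM) housed only with their own sex, and females (CF) or males (CM) housed with the other sex. Housing lasted from weaning at 3 weeks to 6 months of age, with 4 mice per cage, and pups born in the mixed cages were removed soon after birth. Each library was made from RNA pooled from several mice, for which the sources disagree on the number, so the spread between libraries is a spread between pools and hides that between single mice.

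Neuroblasts are born throughout life in the subventricular zone of the mouse forebrain, travel in chains along the rostral migratory stream and become granule and periglomerular interneurons of the OB. Their chains are held together by NCAM that carries polysialic acid, a sugar polymer that loosens contacts between cells. The receptors PROKR2 and ERBB4 act in guidance and chain organisation, and tenascin-R in the OB matrix helps neuroblasts to leave the stream. MOE and VNO also make neurons in adult life, from basal progenitors within the epithelium.

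The effective number of fragments of a library, summed from estimates by the confidence limits, was 3016524 to 5902159 for MOE, 3373400 to 6779893 for VNO and 3592962 to 6437263 for OB. These sums are not the sequencing depth, and the study lists several times as many aligned read pairs. The tissues carried their own markers: Omp of mature olfactory sensory neurons averaged 983 FPKM in MOE, Trpc2 of vomeronasal sensory neurons 43.0 FPKM in VNO and Gad1 of inhibitory neurons 180 FPKM in OB. A pair of MOE libraries stood apart and received low library weights from limma. They are MOE-CM3 with a weight of 0.0503, which also had the lowest of these sums, and MOE-SF2 with a weight of 0.228. By the study, MOE-CM3 did not have the fewest aligned pairs in MOE but had the lowest share of concordant pairs. Results that rest on them are given with and without them. The other tissues held libraries of low weight too. In OB the lowest weights were 0.307 for OB-SF1, 0.367 for OB-SF2 and 0.386 for OB-CM3, and in VNO the lowest was 0.434 for VNO-SF1.

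The set did not follow a single tissue pattern. The mean level was highest in OB for Dcx, Prokr2, Tnr and Erbb4, in MOE for Sox11, and in VNO for Cd24a, Ncam1 and St8sia2. In OB the mean FPKM ran in the order Ncam1, Dcx, Cd24a, Tnr, Erbb4, Sox11, Prokr2 and St8sia2. Neighbours in that order overlapped between libraries from Dcx to Erbb4, and the others did not overlap. In both epithelia Cd24a came first and Ncam1 came next, without overlap.

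**Figure D1:**
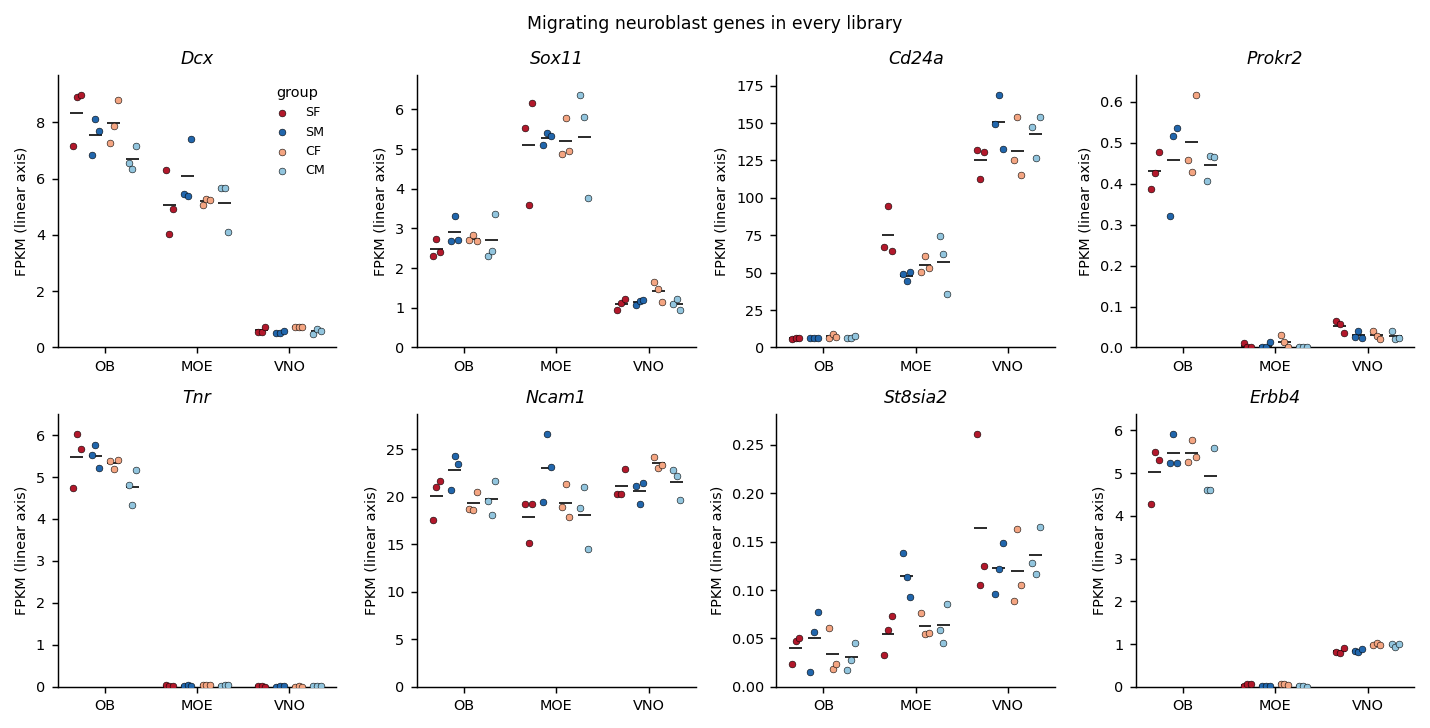
FPKM (linear axis, different for each gene) of the 8 genes in all 36 libraries, by tissue and, within a tissue, by group (SF, SM, CF and CM from left to right). Points are libraries and short lines are group means. Tnr libraries lie between 4.34 and 6.02 in OB and at or below 0.0492 elsewhere, whereas Ncam1 overlaps between all tissues.

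For the tests between tissues, log2(FPKM + 0.5) was fitted with limma over all 36 libraries, and a gene was called at an adjusted p under 0.05 together with a difference of at least 2-fold. Of the 8 genes, 6 passed the filter of a mean FPKM of at least 0.5. Prokr2 and St8sia2 did not pass it and are described by their values. Tnr passed the filter through OB alone, with means of 5.27 FPKM in OB, 0.0260 in MOE and 0.00914 in VNO. Its place among the genes called higher in OB was therefore close to fixed by the filter. Between OB and MOE, 3 of the 6 were called, where 38.3% of all 14596 genes tested were called. Between OB and VNO, 4 of the 6 were called, against 39.1% of all genes. Between MOE and VNO, 4 of the 6 were called, 2 of them higher and 2 lower in MOE, against 21.5% of all genes, with 11.8% higher and 9.72% lower. At an adjusted p under 0.05 without the fold limit these shares of all genes were 85, 85.8 and 82.6%, so that crossing the p threshold alone was common. The median log2 difference over the 6 genes was 0.28 for OB against MOE, 1.47 for OB against VNO and -0.06 for MOE against VNO, beside -0.07, 0.12 and 0.15 over all genes. The 3 tissues were taken from the same mice, but which libraries of different tissues share mice is not given in the sources used here, and the 36 libraries were fitted as separate samples. With a block for libraries of the same group and replicate number, the counts were again 3, 4 and 4. In these tissue samples, fewer cells of a type and less RNA per cell cannot be told apart.

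**Figure D2:**
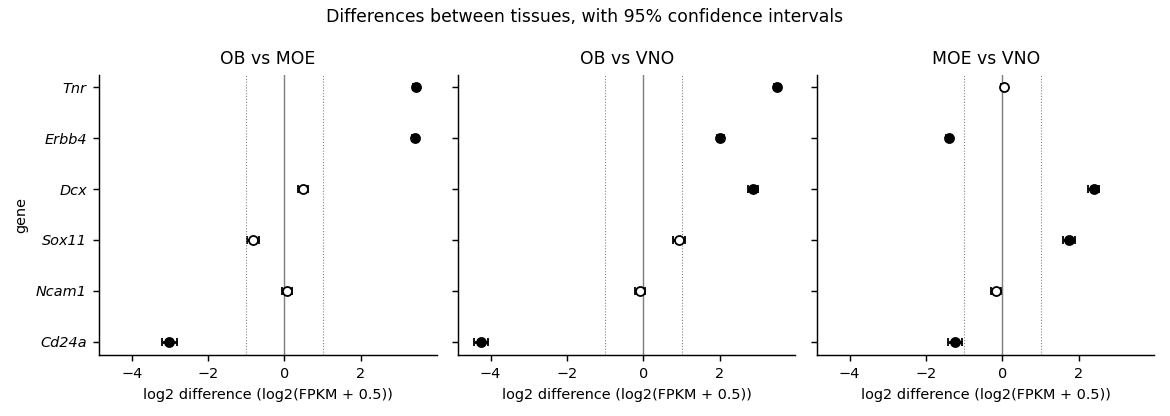
Differences in log2(FPKM + 0.5) between tissues for the 6 genes tested, with 95% confidence intervals from limma. Filled points were called, open points were not, and dotted lines mark a 2-fold difference. Tnr and Erbb4 lie at 3.45 and 3.42 for OB against MOE, and Cd24a lies at -3.01.

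Dcx (doublecortin, chromosome X:140290385-140367762, mm9) encodes a microtubule-binding protein that migrating neurons need to move their nucleus, and it is the usual marker of young neurons. Its FPKM in OB ran from 6.35 to 8.98 with a median of 7.48, in MOE from 4.02 to 7.42 with a median of 5.31, and in VNO from 0.491 to 0.733 with a median of 0.590. The VNO libraries lay far below all others, and the highest MOE library reached into the OB range. Dcx was 12.5-fold higher in OB than in VNO by the ratio of means (log2 difference 2.87 ± 0.07 SE, adjusted p = 1.53e-26) and 8.76-fold higher in MOE than in VNO (2.39 ± 0.07 SE, adjusted p = 7.28e-24). The difference between OB and MOE had an adjusted p of 9.11e-08 and, at a log2 difference of 0.48 (95% CI 0.34 to 0.61), was under the 2-fold limit.

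Dclk1, the closest relative of Dcx, encodes a protein that joins doublecortin domains to a kinase. At the level per length, Dclk1 averaged 71.1 ± 4.69 FPKM in OB (SD, n = 12), which was 9.31-fold the level of Dcx, and it was above Dcx in 12 of 12 OB libraries. In MOE it averaged 4.95 FPKM and was above Dcx in 3 of 12 libraries. In VNO it averaged 2.82 FPKM and was above Dcx in all 12.

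The files list 4 Dcx transcripts, and their estimates were unsteady. In OB, NM_001110222 took between 30.2 and 60.4% of the gene and NM_001110224 between 22.6 and 65.8%. NM_010025 was listed at 0 in 7 of the 12 OB libraries and reached 38.2% in another. The coding stretch below shows where their coding sequences differ. It is from the GENCODE M21 transcript paired with NM_001110222 (coding positions 908 to 1069, counted from 1 at the A of the start codon). Capitals mark 15 bases that only NM_010025 lacks, followed by 3 bases that NM_001110224 and NM_010025 lack.
Dcx NM_001110222: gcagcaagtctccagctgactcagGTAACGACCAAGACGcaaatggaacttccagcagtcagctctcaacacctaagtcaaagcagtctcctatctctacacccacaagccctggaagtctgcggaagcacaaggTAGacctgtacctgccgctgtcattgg
NM_001110223 shares its whole coding sequence with NM_001110222 and was listed at 0 in all OB libraries. The transcripts also differ outside the coding sequence, with whole lengths from 1333 to 9074 bases in GENCODE M21. Because the estimates per transcript were unsteady, the comparisons of Dcx use the sum over transcripts.

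Sox11 (chromosome 12:28019133-28027583) encodes a transcription factor of newborn neurons. Its FPKM ran from 3.59 to 6.37 in MOE (median 5.37), from 2.31 to 3.35 in OB (median 2.69) and from 0.935 to 1.66 in VNO (median 1.16). No library of a tissue overlapped another tissue. Sox11 was 4.40-fold higher in MOE than in VNO (log2 difference 1.75 ± 0.08 SE, adjusted p = 1.48e-18). MOE exceeded OB by a mean ratio of 1.93 and OB exceeded VNO by 2.28, but on the fitted scale both stayed under the 2-fold limit, at log2 differences of -0.83 for OB against MOE and 0.93 for OB against VNO (adjusted p = 4.79e-11 and 3.67e-12). The latter passed the limit at 1.13 with a pseudocount of 0.1 and at 1.10 after quantile normalization.

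Sox4 encodes the sister factor of the same SOX group. It was the more abundant of the pair in OB at 14.4 ± 1.61 FPKM (SD, n = 12), which was 5.34-fold the level of Sox11, and in VNO at 5.83 FPKM. In MOE the order was opposite, with Sox4 at 3.10 FPKM and below Sox11 in 12 of 12 libraries.

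Ncam1 (chromosome 9:49310234-49607498) encodes the neural cell adhesion molecule, the main carrier of polysialic acid. Its gene level hardly differed between tissues: FPKM ran from 17.5 to 24.3 in OB (median 20.6), from 14.5 to 26.6 in MOE (median 19.2) and from 19.2 to 24.2 in VNO (median 21.8), and the ranges overlapped throughout. The log2 difference was 0.07 for OB against MOE (95% CI -0.06 to 0.20, adjusted p = 0.286) and -0.08 for OB against VNO (95% CI -0.21 to 0.05, adjusted p = 0.216). MOE was below VNO by -0.16 (95% CI -0.29 to -0.03, adjusted p = 0.0245), far from 2-fold. The locus overlaps Gm11149, and whether the strand was used in counting is not given in the sources used here.

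The transcripts behind this level gene sum differed between tissues. NM_010875, the form with 725 codons that ends early and yields the lipid-anchored protein without a membrane-spanning segment, was above 0 in all 12 OB libraries and listed at 0 in all 24 libraries of MOE and VNO. In OB it measured 5.54, 6.40 and 6.57 FPKM in SF, 6.82, 7.01 and 6.56 in SM, 5.44, 5.15 and 5.75 in CF, and 4.89, 4.78 and 5.50 in CM. This was between 25.0 and 33.0% of Ncam1 in each OB library. None of these transcript values was tested between groups.

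To show where the coding sequence of this form leaves that of the longer ones, the next lines give both coding sequences around the point where they part, from the paired GENCODE M21 transcripts on the minus strand (coding positions 2075 to 2164, counted from 1 at the A of the start codon). The 30 shared bases are in lower case and the 60 bases of each that follow the parting point are in capitals. The longer form has 848 codons, and GENCODE pairs it with NM_001081445 and NM_001113204 alike.
Ncam1 NM_010875: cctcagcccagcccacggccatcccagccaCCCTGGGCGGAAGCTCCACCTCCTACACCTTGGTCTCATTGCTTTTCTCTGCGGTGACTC
Ncam1 NM_001081445: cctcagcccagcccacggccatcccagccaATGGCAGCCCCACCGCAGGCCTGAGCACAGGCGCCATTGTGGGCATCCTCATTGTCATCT
Both forms share the 2104 coding bases before that point, and 71 coding bases of NM_010875 follow it. An exact 0 from such an estimate says that the transcript was listed at 0, not that it was absent.

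The other Ncam1 transcripts made up the rest. NM_001081445 had a median share of 51.4% in OB, 65.4% in MOE and 61.5% in VNO, and NM_001113204 had 12.5, 31.2 and 25.8%. NM_001311065, with 849 codons, was listed at 0 in 4 OB, 10 MOE and 3 VNO libraries.

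**Figure D3:**
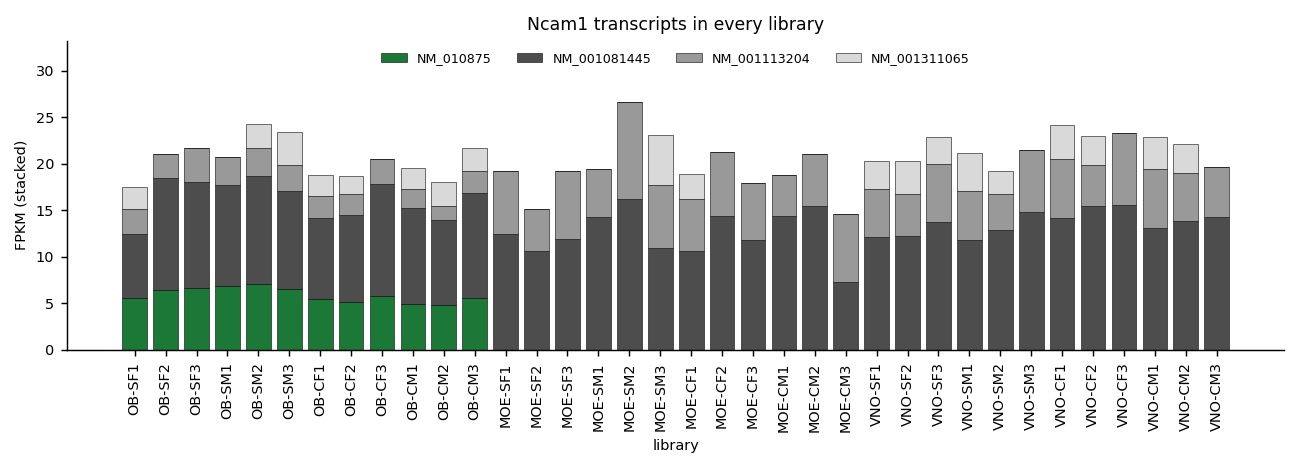
FPKM of the 4 Ncam1 transcripts stacked for each of the 36 libraries, with bars from 0. NM_010875 (green) takes between 4.78 and 7.01 FPKM in the 12 OB libraries and is listed at 0 in the 24 others, while the height of the whole bar is alike in the tissues.

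Summed marker levels of oligodendrocytes, astrocytes and interneurons were also higher in OB than in the epithelia. Those of oligodendrocyte precursors overlapped between OB and VNO, at 23.0 to 27.9 FPKM in OB, 10.9 to 16.9 in MOE and 18.7 to 26.9 in VNO. The 6 oligodendrocyte markers summed to between 251 and 342 FPKM in OB, 7.25 and 15.3 in MOE, and 16.2 and 21.4 in VNO. Mog, which defines the mature cells, was at 0 in all MOE libraries. The 5 astrocyte markers summed to between 179 and 224 FPKM in OB, 54.0 and 95.2 in MOE, and 49.7 and 60.1 in VNO. The 7 interneuron markers summed to between 501 and 666 FPKM in OB, 30.9 and 56.8 in MOE, and 152 and 204 in VNO. All 7 passed the filter on mean FPKM in OB, but only 3 did in MOE and 2 in VNO. The sums in the epithelia therefore rest on few of these genes. Calb2, among the 7, was not lower in VNO, at a log2 difference of -0.29 for OB against VNO. The part of the glial and interneuron markers in the NM_010875 pattern, and in the OB levels of Tnr and Erbb4, was not tested.

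Ncam2, the second member of the family, encodes an adhesion molecule of olfactory axons. It measured 9.90 ± 1.04 FPKM in OB, 13.9 ± 2.31 in MOE and 1.89 ± 0.31 in VNO (SD, n = 12 each). Unlike Ncam1 it was 2.12 lower on the log2 scale in VNO than in OB, and Ncam1 exceeded it 11.5-fold in VNO and 2.07-fold in OB.

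St8sia2 (chromosome 7:81084006-81158568) encodes one of the enzymes that put polysialic acid on NCAM. It was barely detected in OB, at 0.0158 to 0.0771 FPKM (median 0.0368) or between 1 and 9 estimated fragments per library. It ran from 0.0326 to 0.139 FPKM in MOE and from 0.0890 to 0.261 in VNO. The VNO range lay above the OB range, and MOE overlapped with both. From the fragments pooled over a tissue, the mean level in VNO was 3.50-fold that in OB (95% exact interval 2.53 to 4.93, which covers counting error only), from 158 and 49 fragments. Without the filter, limma gave a log2 difference of -0.24 for OB against VNO (adjusted p = 8.64e-08).

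St8sia4 encodes the other enzyme of polysialic acid synthesis. It was above St8sia2 in every library of every tissue, and its mean was 5.86 ± 0.67 FPKM in OB, 1.12 ± 0.23 in MOE and 1.65 ± 0.20 in VNO (SD, n = 12 each). In OB the mean of St8sia4 was 151-fold that of St8sia2.

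Cd24a (chromosome 10:43298975-43304071) encodes a small lipid-anchored glycoprotein that marks neuroblasts and is also found on epithelial, B and other blood cells. Its level ran from 5.78 to 8.91 FPKM in OB (median 6.49), 35.8 to 94.8 in MOE (median 57.3) and 113 to 169 in VNO (median 132). No library of one tissue overlapped another tissue. Cd24a was 8.80-fold higher in MOE than in OB (log2 difference of OB against MOE -3.01 ± 0.09 SE, adjusted p = 2.08e-23) and 20.5-fold higher in VNO than in OB (-4.26 ± 0.09 SE, adjusted p = 2.69e-27). The level in VNO was 2.33-fold that in MOE (log2 difference of MOE against VNO -1.25 ± 0.09 SE, adjusted p = 2.17e-13). Mouse Cd24a has intronless copies elsewhere in the genome, and how reads were shared with them is not given in the sources used here.

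Markers of blood cells moved in part with Cd24a. The 9 B cell markers summed to at most 0.486 FPKM in OB, 3.87 to 6.19 in MOE and 1.64 to 3.55 in VNO, so that they were lower in VNO than in MOE while Cd24a was higher. The 8 neutrophil markers summed to 0.737 to 27.6 FPKM in OB, 148 to 356 in MOE and 1080 to 1874 in VNO. Most of the VNO sum was Ltf, at a mean of 1424 FPKM, whereas S100a8 averaged 34.6 FPKM in MOE and 28.9 in VNO, and Elane and Mpo stayed at or below 1.10 in every library. The erythroid markers summed to 2.24 to 204 FPKM in OB, 29.8 to 411 in MOE and 179 to 1092 in VNO. Their part in the Cd24a levels was not tested.

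Tnr (chromosome 1:161453900-161855053) encodes tenascin-R, a matrix glycoprotein of the adult brain that is made by oligodendrocytes and some interneurons. Its FPKM ran from 4.34 to 6.02 in OB (median 5.30), from 0.00929 to 0.0492 in MOE and from 0 to 0.0182 in VNO, where 4 libraries were at 0. Every OB library lay far above every library of the other tissues. The log2 difference was 3.45 ± 0.04 SE for OB against MOE (adjusted p = 4.76e-34) and 3.50 ± 0.04 SE for OB against VNO (adjusted p = 2.96e-34). Both differences understate the change, because the pseudocount exceeds the lower levels. Tnr passed the filter through OB alone, so these p-values are no separate support for the difference. From pooled fragments the OB level was 202-fold that of MOE (95% exact interval 141 to 303, 29 fragments in MOE) and 577-fold that of VNO (330 to 1117, 12 fragments in VNO).

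Tnc encodes tenascin-C, a relative of tenascin-R found in developing and renewing tissue. Its order of tissues was the opposite of that of Tnr: 0.592 ± 0.084 FPKM in OB, 6.88 ± 1.01 in MOE and 22.4 ± 4.13 in VNO (SD, n = 12 each). Tnr was above Tnc in 12 of 12 OB libraries, and Tnc was above Tnr in all libraries of both epithelia.

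Prokr2 (chromosome 2:132196065-132211183) encodes the receptor for prokineticin 2, a chemoattractant made in the OB. Its FPKM ran from 0.322 to 0.618 in OB (median 0.461), from 0.0208 to 0.0649 in VNO and from 0 to 0.0297 in MOE, where 8 of 12 libraries were at 0. Every OB library lay above every library of the epithelia, although OB libraries held only 18 to 52.8 estimated fragments of it. From pooled fragments the OB level was 83.4-fold that of MOE (95% exact interval 35.5 to 258, 5 fragments in MOE) and 13.1-fold that of VNO (9.29 to 19.0, 35 fragments in VNO). Without the filter, limma gave adjusted p = 6.70e-21 and 6.35e-20 for these comparisons, at log2 differences of 0.92 and 0.84, both under the 2-fold limit on that scale.

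The ligand and the sister receptor were as thinly covered. Prok2 measured 0.260 to 0.760 FPKM in OB (median 0.461), from at most 14.7 estimated fragments in a library. All MOE libraries and 10 of 12 VNO libraries listed it at 0. Prokr1 ran the other way, with means of 0.0129 FPKM in OB, 0.0630 in MOE and 0.142 in VNO, so that Prokr2 led in OB and Prokr1 led in all libraries of the epithelia.

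Erbb4 (chromosome 1:68078761-69154633) encodes a receptor tyrosine kinase for neuregulins, found on neuroblasts and on many inhibitory neurons. Its FPKM ran from 4.28 to 5.92 in OB (median 5.29), from 0.792 to 1.02 in VNO (median 0.919) and from 0.00544 to 0.0720 in MOE (median 0.0265). The tissues did not overlap. The log2 difference was 3.42 ± 0.04 SE for OB against MOE (adjusted p = 1.86e-33), 2.02 ± 0.04 SE for OB against VNO (adjusted p = 1.07e-27) and -1.40 ± 0.04 SE for MOE against VNO (adjusted p = 5.17e-23). With a pseudocount of 1 the last of these was -0.88, under the 2-fold limit. From pooled fragments the OB level was 152-fold that of MOE (95% exact interval 123 to 190) and 5.73-fold that of VNO (5.49 to 5.99).

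The other receptors of the family had their lowest means in OB. Erbb3 averaged 2.77 FPKM in OB, 6.99 in MOE and 7.59 in VNO. Egfr averaged 1.87, 3.91 and 6.29 FPKM, and Erbb2 averaged 0.235, 1.73 and 3.58 FPKM, although Erbb2 was listed at 0 in 6 OB libraries. Erbb4 was above all of them in every OB library and below all of them in every MOE and VNO library. Of the neuregulins, Nrg3, whose known receptor is ERBB4, averaged 1.41 FPKM in OB, was listed at 0 in all VNO libraries and averaged 0.0025 in MOE. Nrg2 averaged 3.96 FPKM in OB, 0.367 in MOE and 1.01 in VNO.

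**Figure D4:**
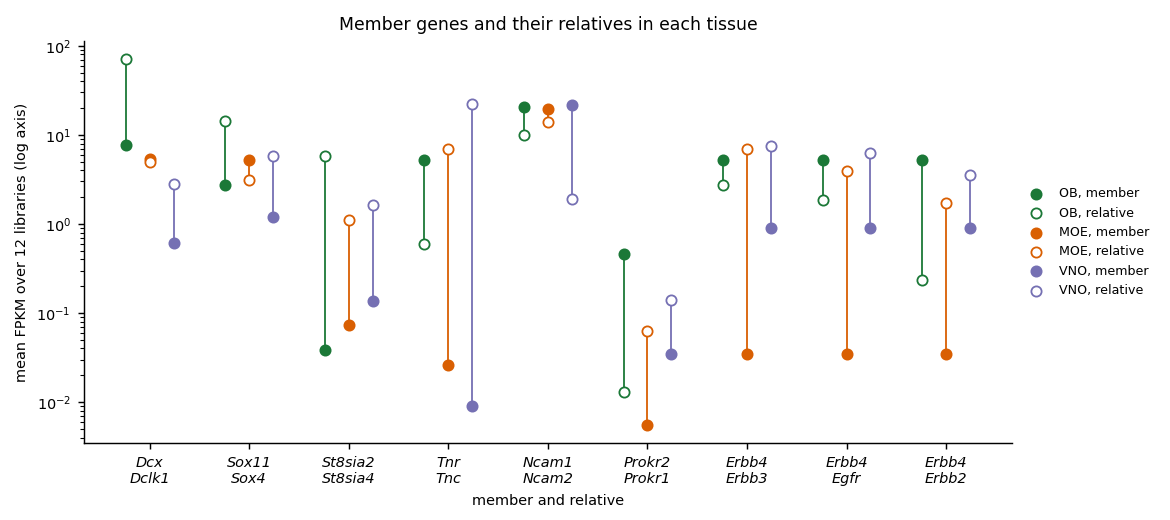
Mean FPKM over the 12 libraries of a tissue (log axis) of each gene of the set (filled) and its relative (open), joined by a line and coloured by tissue. Dclk1, Sox4 and St8sia4 lie above Dcx, Sox11 and St8sia2 in OB, and Tnr and Tnc, as well as Erbb4 and its relatives, change places between OB and the epithelia.

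Genes of the wider migration programme were compared in the same way, by counts of called genes. Of 12 transcription factors of the neuroblast and interneuron lineage, 11 were tested, and 10 were higher in OB than in MOE with 0 lower, and 8 were higher in OB than in VNO with 0 lower. All genes gave 17.3% higher and 21.1% lower in OB against MOE, and 19 and 20.2% against VNO. In OB, 11 of the 12 reached the filter on mean FPKM, but only 7 did in MOE and 7 in VNO. Genes that passed it through OB could hardly be called lower there, so the counts of 0 lower were in part set by the filter. Meis2, Dlx1 and Sp8 had the highest OB levels, at 57.2, 21.5 and 14.9 FPKM, with log2 differences against MOE of 4.21, 5.35 and 1.38. The list median was 2.21 against MOE and 1.30 against VNO.

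Of the 12 cytoskeletal genes of young neurons, 4 were higher in OB than in MOE with 0 lower, and 8 were higher in OB than in VNO with 1 lower (medians 0.55 and 1.43). Tuba1a, an alpha-tubulin of growing neurons, was the most abundant at 190 FPKM in OB and was at 291 in MOE, with a log2 difference of -0.59 that did not reach 2-fold. Tubb3, the neuronal beta-tubulin, measured 134 FPKM in OB, 69.8 in MOE and 28.9 in VNO, and its log2 differences were 0.96 against MOE and 2.2 against VNO.

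Of the 17 adhesion and matrix genes, 11 were higher in OB than in MOE and 3 lower, and 10 were higher and 3 lower against VNO (medians 1.09 and 1.05). The most abundant in OB were Cntn1 at 54.6 FPKM, Nrcam at 35.4 and Bcan at 23.7, which encode 2 immunoglobulin-family adhesion molecules and the proteoglycan brevican. Their log2 differences against MOE were 4.73, 3.71 and 3.89. Some of these genes, such as Ncam2, Tnc and St8sia4, were also counted among the relatives.

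The 22 genes of migration signals were divided. Of 17 tested, 7 were higher in OB than in MOE and 3 lower, and 6 were higher and 4 lower against VNO (medians 0.44 and -0.17). Ntrk2, the receptor for BDNF, measured 31.8 FPKM in OB, 2.2 in MOE and 5.24 in VNO. Reln, the stop signal reelin, measured 26.6 FPKM in OB and could not enter the fit, because Cufflinks had failed on an entry of it in a library. Robo2 was higher in OB at 11.5 FPKM, whereas its ligand Slit2 measured 0.553 FPKM in OB, 3.92 in MOE and 7.79 in VNO.

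Genes of cell division were low in OB. Of 10, 7 were tested, and 0 were higher in OB with 5 lower than in MOE and 3 lower than in VNO (medians -1.18 and -0.83). Of all genes, 21.1% were lower in OB than in MOE and 20.2% lower than in VNO. In OB, 0 of the 10 reached the filter on mean FPKM, against 8 in MOE and 5 in VNO. All 7 therefore passed it through the epithelia, and the count of 0 higher in OB was close to fixed by the filter. Mki67 averaged 0.0694 FPKM in OB, 1.23 in MOE and 0.763 in VNO. The most abundant in OB were Nusap1 at 0.357 FPKM, Tpx2 at 0.285 and Ccnb2 at 0.230.

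Markers of the resident OB cells set the background for these levels. Of 7 interneuron markers, 6 were higher in OB than in MOE and 6 were higher than in VNO, and all 4 mitral and tufted cell and 6 oligodendrocyte markers were higher in OB than in both epithelia. Fewer of these genes reached the filter on mean FPKM in the epithelia. For mitral and tufted cells 2 did in MOE and 1 in VNO, and for oligodendrocytes 4 and 3. The counts for these lists were therefore in part set by the filter. Of 5 astrocyte markers, 4 were higher in OB than in MOE and 1, Aqp4, was lower. Of 6 oligodendrocyte precursor markers, 2 were higher in OB than in MOE, and 3 were higher and 2 lower than in VNO. All 6 mature olfactory neuron markers were lower in OB than in MOE, as was 1 of the 4 vomeronasal neuron markers, Trpc2, while 2, Gnao1 and Vmn2r1, were higher. Against VNO, Trpc2 and Vmn2r1 were lower in OB by log2 differences of -6.03 and -2.64, and Gnao1, a G protein subunit that brain neurons also make, was higher by 1.15. Of the 5 immature olfactory neuron markers, 3 were tested. Against MOE 0 were higher in OB and 1, Gng8, was lower (-1.81), and against VNO Gap43 was higher (2.53) and Gng8 lower (-3.55). Gap43 measured 35.1 FPKM in OB and 18.7 in MOE, a log2 difference of 0.90 that did not reach 2-fold, and Neurog1 was at 0 in all OB libraries.

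Within tissues, sex and housing were compared by limma in 1 fit per tissue, which answers the study's question of how the sexes and housings differ. The filter left 4 of the 8 genes for MOE, 5 for VNO and 6 for OB. Over the 15 comparisons, 0 of the 75 tests passed an adjusted p under 0.05, the smallest adjusted p was 0.452, and 3 tests had an unadjusted p under 0.05 in limma. Library weights, the setting that lowered the weight of some libraries, called 8 of the 75, while calling up to 3147 of all genes in a comparison. The share of all genes in the same comparisons is not set beside these 8 calls, so they are not read as a result about the set. In the unweighted fit calls were rare among all genes too, and the shares that follow are from that fit. In MOE the share of all genes called was 0.102% for SF vs SM, 0.0437% for CF vs CM, 0.0364% for the interaction of sex and housing, 0.051% for CF vs SF and 0.0655% for CM vs SM. In VNO it was 0.0724% for SF vs SM, 0.0434% for CF vs CM and 0% for the other comparisons. In OB it was 0.0391% for SF vs SM, 0.047% for CF vs CM, 0.00783% for the interaction, 0.00783% for CF vs SF and 0% for CM vs SM.

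The sizes of these differences were small. The largest of the 75 was 0.63 on the log2 scale, which is less than 2-fold. In 13 of the 60 pairwise tests the 3 libraries of one group did not overlap the 3 of the other, and over all genes this was so in 10.2% of tests, with 4.14 to 15.6% by comparison.

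**Figure D5:**
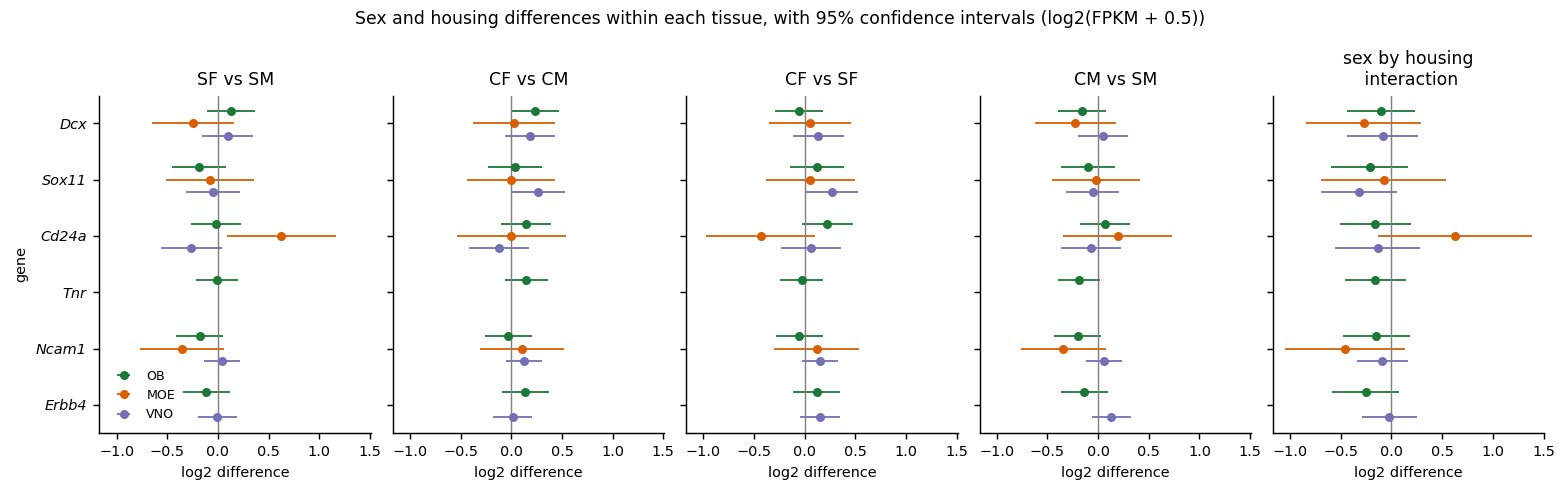
Differences in log2(FPKM + 0.5) between groups of the same tissue, with 95% confidence intervals from limma, for the genes that passed the filter in that tissue (colours). The interaction is the difference of SF vs SM minus that of CF vs CM. The widest departures are those of Cd24a in MOE, at 0.63 for SF vs SM and 0.63 for the interaction, and no gene passed the adjusted threshold.

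Cd24a in MOE showed the difference with the smallest p. It measured 67.2, 94.8 and 64.5 FPKM in SF, 49.1, 44.4 and 50.7 in SM, 50.4, 61.2 and 53.4 in CF, and 74.3, 62.2 and 35.8 in CM. All SF libraries lay above all SM libraries, while the CM libraries spread over most of the range. The log2 difference of SF vs SM was 0.63 ± 0.25 SE (unadjusted p = 0.0248, adjusted p = 1 in limma), and 14.1% of all genes had groups that did not overlap in this comparison. Without MOE-SF2, the highest library, it was 0.45. For CF vs SF it was -0.44 (95% CI -0.97 to 0.10), with groups that did not overlap, as in 10.4% of all genes, and the interaction was 0.63 (95% CI -0.13 to 1.39). Without MOE-SF2 these were -0.26 and 0.45, and without MOE-CM3 the interaction was 0.93.

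The same pair of libraries stood at the low end for other genes. MOE-SF2 and MOE-CM3 had the lowest values of Dcx, at 4.02 and 4.09 FPKM, of Sox11, at 3.59 and 3.76, and of Ncam1, at 15.2 and 14.5. Their mature olfactory neuron markers also had the lowest sums, at 1298 and 1155 FPKM, where the median of the tissue was 1844. In Cd24a they parted, with the highest and the lowest value of MOE. Over SF and SM, the B cell markers summed to 4.12 to 5.07 and 5.13 to 6.19 FPKM, the neutrophil markers to 208 to 356 and 224 to 268, and the erythroid markers to 169 to 301 and 29.8 to 184. The part of these in the Cd24a difference was not tested.

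Ncam1 gave the smallest p in other MOE comparisons. Its libraries measured 19.2, 15.2 and 19.3 FPKM in SF, 19.4, 26.6 and 23.1 in SM, 18.9, 21.3 and 17.9 in CF, and 18.8, 21.0 and 14.5 in CM. The SM libraries were the highest group and lay above SF by a small gap, in a comparison where 14.1% of all genes did not overlap. For CM vs SM the log2 difference was -0.34 (95% CI -0.76 to 0.08, adjusted p = 0.706), beside a median of -0.17 over all genes in that comparison, and it was -0.20 without MOE-CM3. For CF vs CM it was 0.11 (95% CI -0.31 to 0.52), and -0.04 without MOE-CM3.

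St8sia2, which was too low for the filter, measured 0.0326, 0.0586 and 0.0728 FPKM in MOE of SF, 0.139, 0.113 and 0.0923 in SM, 0.0766, 0.0548 and 0.0558 in CF, and 0.0590, 0.0456 and 0.0860 in CM. The SM libraries lay above all others, from 13 estimated fragments or fewer each, and groups did not overlap in 14.1% of all genes for SF vs SM and 13.4% for CM vs SM. Without the filter the log2 difference of SF vs SM was -0.15 ± 0.05 SE (unadjusted p = 0.00993, adjusted p = 1 in limma), and this gene was singled out after its values were seen.

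In VNO, Sox11 measured 1.66, 1.47 and 1.14 FPKM in CF, 1.11, 1.23 and 0.935 in CM, 0.946, 1.12 and 1.21 in SF, and 1.07, 1.17 and 1.20 in SM. A pair of CF libraries lay above all others and the other CF library lay among them. The share of all genes whose groups did not overlap was 8.7% for CF vs CM. The log2 difference was 0.27 for CF vs CM (unadjusted p = 0.0472, adjusted p = 1 in limma) and 0.26 for CF vs SF (unadjusted p = 0.0491, adjusted p = 0.452 in limma), and these comparisons share the CF libraries. The medians over all genes were 0.01 and 0.10. Without the highest of them, VNO-CF1, the values were 0.18 for both. The interaction in VNO was -0.32 (95% CI -0.69 to 0.05). The immature olfactory neuron markers summed to 16.1 to 18.9 FPKM in CF, 11.7 to 15.4 in CM and 11.6 to 12.3 in SF, and their part in the Sox11 values was not tested.

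Erbb4 in VNO was divided by housing. It measured 0.819, 0.792 and 0.906 FPKM in SF, 0.838, 0.820 and 0.877 in SM, 0.968, 1.02 and 0.971 in CF, and 0.998, 0.932 and 0.991 in CM. All libraries from mixed cages lay above all libraries from single-sex cages. The log2 differences were 0.15 for CF vs SF (95% CI -0.04 to 0.35, adjusted p = 0.516) and 0.13 for CM vs SM (95% CI -0.06 to 0.33, adjusted p = 1), beside medians of 0.10 and 0.01 over all genes. Groups did not overlap in 15.6 and 7.95% of all genes in these comparisons, and this gene was singled out after its values were seen. Those shares are for females and males separately, and the share of all genes apart by housing over both sexes together was not counted. The vomeronasal neuron markers summed to 91.3 to 104 FPKM in SF and 109 to 111 in CF. In males these sums overlapped, at 90.8 to 109 in SM and 99.1 to 116 in CM. The part of these markers in the Erbb4 values was not tested.

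Cd24a in VNO measured 132, 113 and 130 FPKM in SF, 150, 169 and 133 in SM, 125, 154 and 115 in CF, and 148, 127 and 154 in CM. SF lay just below SM without overlap, at a log2 difference of -0.26 (95% CI -0.56 to 0.04, adjusted p = 0.602), in a comparison where 14.6% of all genes did not overlap. The summed B cell and neutrophil markers were lower in SF as well, although most of the neutrophil sum in VNO was the single gene Ltf. The B cell markers summed to 1.64 to 2.16 FPKM in SF and 3.08 to 3.55 in SM, and the neutrophil markers to 1080 to 1309 and 1532 to 1680, without overlap, while the erythroid markers summed to 179 to 490.3 and 489 to 527. Their part in this Cd24a difference was not tested.

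In OB, Dcx measured 7.26, 7.88 and 8.79 FPKM in CF, 6.56, 6.35 and 7.17 in CM, 7.16, 8.89 and 8.98 in SF, and 6.84, 8.11 and 7.70 in SM. CF and CM did not overlap, and SF and SM did. The log2 difference of CF vs CM was 0.23 ± 0.11 SE (95% CI 0.00 to 0.47, unadjusted p = 0.0501, adjusted p = 0.868 in limma), and 10.2% of all genes did not overlap in this comparison. Tnr did not overlap there either, at 5.38, 5.20 and 5.40 FPKM in CF and 4.80, 4.34 and 5.17 in CM, with a log2 difference of 0.15 (95% CI -0.06 to 0.36). The mature olfactory neuron markers summed to 40.4 to 46.4 FPKM in CF and 49.6 to 60.9 in CM, and the erythroid markers to 134 to 204 and 2.24 to 104. Their part in the Dcx values was not tested.

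The other OB comparisons gave smaller departures. Tnr libraries of CM lay below those of SM, which measured 5.53, 5.77 and 5.21 FPKM, without overlap and with a log2 difference of -0.19 (95% CI -0.40 to 0.02), where 7.8% of all genes did not overlap. Cd24a in OB measured 6.61, 8.91 and 6.91 FPKM in CF and 5.78, 6.48 and 6.59 in SF, without overlap and with a log2 difference of 0.22 (95% CI -0.02 to 0.47), where 5.82% of all genes did not overlap. The neutrophil markers summed to 5.87 to 27.6 FPKM in CF and 0.737 to 2.39 in SF, also without overlap, and the B cell markers to 0.118 to 0.201 and 0.0768 to 0.277. Their part in the OB values of Cd24a was not tested. For SF vs SM the smallest p was that of Ncam1, at -0.18 (95% CI -0.41 to 0.05), and 0 of the 6 genes had groups apart, against 8.59% of all genes. For the interaction it was that of Erbb4, at -0.25 (95% CI -0.58 to 0.07), and its libraries measured 4.28, 5.49 and 5.31 FPKM in SF, 5.24, 5.92 and 5.24 in SM, 5.26, 5.77 and 5.37 in CF, and 4.60, 4.62 and 5.59 in CM. All 4 groups of Erbb4 overlapped with one another.

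Among the 18 lists compared, 1 gene was called within a tissue. Gad1, which encodes an enzyme of GABA synthesis and is nearly restricted to OB here, measured 0.550 to 0.936 FPKM in VNO of SF and 1.70 to 1.85 in SM (log2 difference -0.86 ± 0.13 SE, adjusted p = 0.0298).

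Whether OB libraries that were high in one gene of the set were also high in the others was asked over the 12 OB libraries, which share a tissue but not a group. Over the 28 pairs the median Pearson r was 0.44, 26 pairs were positive, and 3 had an adjusted p under 0.05 in a two-sided permutation test with 100000 resamples, adjusted over the 28 pairs. The median r of each of the 8 genes with all genes of the OB libraries ran from 0.14 to 0.50, so that a positive median was common. For Sox11 and Erbb4 r was 0.815 and Spearman's rho 0.832 (permutation p = 0.00173 and 0.00144, adjusted p = 0.0382 and 0.0403). Without the 2 libraries farthest from the median of Sox11, r was 0.869. Sox11 and Erbb4 also ran with many other genes, however: r was at least 0.7 with 16.3 and 22.2% of all genes in OB. For Dcx and Tnr r was 0.770 and rho 0.769 (permutation p = 0.00273 and 0.00518, adjusted p = 0.0382 and 0.0725), and r was 0.666 without the 2 libraries farthest from the median of Dcx. Tnr and Erbb4 had r of 0.750 and rho of 0.587 (permutation p = 0.00503 and 0.0487, adjusted p = 0.0469 and 0.195), and r was 0.761 without the 2 libraries farthest from the median of Tnr. After quantile normalization or upper quartile scaling 0 pairs passed, 10 passed when deviations from the group means were used, and 0 or 1 passed without any one of OB-SF1, OB-SF2, OB-SF3, OB-SM2, OB-SM3, OB-CM1 or OB-CM2.

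The genes whose pattern over the 36 libraries was most like that of each gene were found by the root mean square difference of log2(FPKM + 0.5), centred on the mean of each gene. For Dcx they were Nol4 (0.14) and Stxbp5l (0.14), for Sox11 Glo1 (0.14) and Ssbp2 (0.15), and for Cd24a Plet1 (0.24) and Prr15 (0.25). For Tnr they were Nefh (0.05), which was listed at 0 in all MOE and VNO libraries, and Csmd3 (0.09), and for Erbb4 Ptprt (0.13) and Adcy2 (0.14). For Ncam1 they were Mtf1 (0.11) and Cog1 (0.12), for Prokr2 Mmab (0.12) and Phf21a (0.12), and for St8sia2 Prdm2 (0.12) and Pot1b (0.12). The likeness of the last 3 genes is mostly that of flat profiles, since Ncam1 is level and the other 2 are low against the pseudocount.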

How the data were processed

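RNA was depleted of ribosomal RNA (a stranded kit), sequenced as pairs of 50 bases, aligned by the authors with TopHat2 2.1.0 to mm9 and quantified with Cufflinks 2.2.1.0, per the labels; the authors deposited FPKM values per RefSeq transcript, with confidence limits. Here 99.4% of entries were matched to symbols through a RefSeq gene table, and 5 MOE, 1 VNO and 1 OB genes with an unsuccessful entry were left out. Tables of MOE list more entries (40150) than those of VNO and OB (40008), which touches levels set across tissues. The fragments of an entry were estimated by dividing FPKM by its standard error, which the confidence limits give, and squaring.

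The tests were made in R 4.3.3 with limma 3.58.1 (lmFit, eBayes with trend) on log2(FPKM + 0.5), after dropping genes whose mean FPKM was under 0.5. Two-sided p-values were adjusted by Benjamini-Hochberg over all genes of a comparison. The study used Cuffdiff, which needs alignments not used here. Fold changes on this scale understate those of low genes. The method was tested on simulated data. Intervals on pooled fragments are exact and, as reads carry no molecular identifiers, cover counting error only. Correlations used scipy 1.17.1. Coding sequences are from GENCODE M21 (GRCm38).

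The genes and lists were chosen with earlier results of these data known. Named are all 8 genes, their relatives, Prok2, the 3 genes of each list highest in OB, list genes called within a tissue, the smallest p per comparison and the 2 genes most alike in pattern. Slit2, Nrg2, Nrg3, Mki67 and the marker genes named beside a result were chosen after their values were seen. Alternatives were pseudocounts of 0.1 and 1, no filter, quantile and upper quartile scaling, library weights, a replicate block, fits on the libraries compared only, and each library left out.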

Additional observations from a re-analysis of the deposited data

Results flagged for a closer look

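Cd24a differed in opposite directions in 2 tissues with no overlap between groups, which is what set these results aside. Such groups were also apart in 14.1% of all genes for MOE SF vs SM and 14.6% for VNO SF vs SM. For CF vs SF the shares were 10.4% in MOE and 5.82% in OB. For SF vs SM the log2 difference was 0.63 in MOE, where SF was higher, and -0.26 in VNO, where SF was lower, so that the tissues differed by 0.89. For CF vs SF it was -0.44 in MOE and 0.22 in OB, a difference between tissues of -0.66. Neither difference between tissues was tested, and neither comparison passed the adjusted threshold in any of these tissues. Without MOE-SF2, which received a low library weight, the MOE differences were 0.45 for SF vs SM and -0.26 for CF vs SF. The VNO difference was -0.17 without VNO-SM2, and the OB difference was 0.10 without OB-CF2.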

How the results depend on the processing

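Between tissues, the counts of called genes (3, 4 and 4) ranged from 3 to 5 over the alternatives and were the same without any single library. A pseudocount of 1 left Erbb4 under 2-fold between MOE and VNO (-0.88), a pseudocount of 0.1 and quantile normalization took Sox11 past 2-fold between OB and VNO (1.13 and 1.10), and quantile normalization turned Tnr between MOE and VNO, both near 0, to -0.00448. Within tissues, no alternative but library weights called a gene of the set. Library weights called 1 in MOE SF vs SM (Cd24a, 0.49), 1 in the MOE interaction (Cd24a, 0.81) and 1 in MOE CF vs SF (Cd24a, -0.33). They also called 1 in OB CF vs CM (Dcx, 0.31) and 4 in OB CM vs SM (Dcx, Tnr at -0.23, Ncam1 and Erbb4). That setting called between 0 and 3147 of all genes by comparison, where the unweighted fit called at most 14. The share of all genes in the same comparisons is not set beside these calls, so they are not read as a result about the set. The cause of the larger number of calls was not tested. Ncam1 in MOE CF vs CM, at 0.11, turned to -0.014 after quantile normalization, -0.0070 after upper quartile scaling, -0.067 with library weights, and ran from -0.041 (without MOE-CM3) to 0.22 when each library was left out. Of 1125 refits within tissues 81 changed sign, none of a called gene. The 3 pairs that ran together in OB became 0 under quantile normalization or upper quartile scaling, 10 with deviations from group means, and 0 to 4 without single libraries.

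Whether replicate numbers pair the libraries is not given in the sources used here. Deviations of same-numbered libraries from their group means correlated between -0.14 and 0.27 within tissues and -0.24 and 0.16 across tissues. Such correlations cannot settle whether these libraries share mice, because noise of single libraries could hide it. With the replicate block the set again had 0 calls within tissues and 3, 4 and 4 between them. Low fragment counts limit the values of Prokr2, St8sia2, Prok2 and Prokr1, and those of Tnr in MOE and VNO. Without the filter, neither Prokr2 nor St8sia2 was called within a tissue.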
